A study of Rattus norvegicus with 9 samples.

Results

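The superoxide and peroxide scavenging enzymes are described here by 10 genes, taken by symbol alone: the superoxide dismutases Sod1, Sod2 and Sod3, catalase (Cat), the glutathione peroxidases Gpx1, Gpx3 and Gpx4, and the peroxiredoxins Prdx1, Prdx2 and Prdx6. All 10 had a row among the 23026 genes of the deposited tables, and all 10 were among the 16874 genes kept for testing by a filter on low counts. The RNA came from bone of 9 female Sprague–Dawley rats, with 3 libraries per group, and poly(A) mRNA was sequenced. The Sham rats kept their ovaries and lost only fat beside them, the OVX rats had both ovaries removed (a model of postmenopausal osteoporosis), and both groups received the vehicle sodium carboxymethyl cellulose (CMC-Na). The OVX-AS-IV-High rats, called the treated group or treated replicates 1 to 3 below, were ovariectomized and received astragaloside IV (AS-IV), a saponin of Astragalus root, at 80 mg/kg. By the methods of the study, AS-IV was prepared in 1% CMC-Na, and all groups were dosed once daily by oral gavage. The rats were 8 weeks old at purchase and were acclimatized for 1 week, dosing began 6 weeks after surgery, and it lasted 8 weeks in every group. By the labels, the vehicle held 1% CMC-Na in Sham replicate 1 and all OVX replicates, 2% in Sham replicate 2 and 3% in Sham replicate 3, whereas the methods of the study give a single strength for both groups, that of Sham replicate 1. Which of these holds is not known, and Sham was treated as 1 group. Each group held 5 rats, of which 3 were sequenced as independent biological replicates. A frozen femur was kept for molecular work, so the libraries hold the RNA of bone and marrow together. In such bulk samples, fewer cells of a type and less RNA per cell cannot be told apart. The study also assayed superoxide dismutase and malondialdehyde in serum, and the transcripts of the enzymes in bone address whether their mRNA differed between the same groups.

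Superoxide dismutases convert superoxide into hydrogen peroxide: Sod1 in the cytosol with copper and zinc, Sod2 in the mitochondrial matrix with manganese, and Sod3 outside the cell. Catalase, glutathione peroxidases and peroxiredoxins then remove the peroxide. Glutathione peroxidases spend glutathione, and most peroxiredoxins are recycled by thioredoxin. In marrow these enzymes are known for protecting hemoglobin-rich red cell precursors, and in bone, osteoclasts use reactive oxygen species as a signal during their formation.

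Many antioxidant genes are known to be switched on by the factor NRF2 through the antioxidant response element, so the sequence before the transcription start was read from RefSeq (build GRCr8, a later build than the mRatBN7.2 named in the submitters' processing notes) for the 8 members matched by symbol, all but Sod3 and Prdx6. In windows of 250 bases before to 50 bases after each start, the letters TGACNNNGC were searched on both strands, and 12.1% of 33469 such windows in the table held them. Among the 8 genes they were found in Sod2 and Prdx1, once each and on the minus strand of the window, starting at -35 and -135 from the transcription start. The 250 bases before these starts are printed because they carry the element, shown in capitals (GCAGGGTCA in Sod2 and GCTGAGTCA in Prdx1), and read 5′ to 3′ on the strand of the gene.
Sod2, chr1:50050169-50050418, minus strand: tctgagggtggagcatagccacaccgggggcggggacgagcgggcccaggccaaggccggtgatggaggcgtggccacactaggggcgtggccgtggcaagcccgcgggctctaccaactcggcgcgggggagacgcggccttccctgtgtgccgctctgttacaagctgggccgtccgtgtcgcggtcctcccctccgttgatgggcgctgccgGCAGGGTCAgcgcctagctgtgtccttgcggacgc
Prdx1, chr5:135383656-135383905, plus strand: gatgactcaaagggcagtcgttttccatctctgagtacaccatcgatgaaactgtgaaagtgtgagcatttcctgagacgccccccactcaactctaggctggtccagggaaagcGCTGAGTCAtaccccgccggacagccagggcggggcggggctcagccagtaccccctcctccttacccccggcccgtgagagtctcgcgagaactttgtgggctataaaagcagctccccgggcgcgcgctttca
The window of Gpx4 is shown because Gpx4 was the member with an unadjusted p under 0.05 between groups (below), and it lies before the most 5′ of its 3 starts in the table. It held no TGACNNNGC, and the capitals mark GGGCGG on either strand, the GC box, which 33.1% of all windows held. The first run of capitals joins a pair of overlapping GC boxes.
Gpx4, chr7:10303630-10303879, minus strand: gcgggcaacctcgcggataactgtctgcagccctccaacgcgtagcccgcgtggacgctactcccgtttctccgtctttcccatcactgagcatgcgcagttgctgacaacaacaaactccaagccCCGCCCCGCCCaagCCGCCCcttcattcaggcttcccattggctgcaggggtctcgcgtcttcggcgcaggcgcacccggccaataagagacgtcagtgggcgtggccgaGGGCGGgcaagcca
These matches describe the letters in the windows and nothing about binding.

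Transcript levels were compared between genes as FPKM, the number of fragments scaled to transcript length and library size. Gpx1, the main cytosolic glutathione peroxidase, stood highest, with a mean of 1337 FPKM over the 9 libraries and a range from 1102 to 1494. Prdx2, the abundant peroxiredoxin of red cells, followed at 682 (603 to 910), and Gpx3, the secreted glutathione peroxidase of plasma, at 508 (302 to 960). Sod1 had a mean of 262 FPKM (179 to 303), Gpx4 199 (170.4 to 250.1), and Prdx1 155 (121 to 205).
Prdx6, a peroxiredoxin that uses glutathione and also has phospholipase activity, had 102 FPKM (96.6 to 107), Cat 70.1 (57.5 to 81.4), Sod2 56.1 (45.1 to 76.4) and Sod3 28.9 (17.0 to 47.8). Even Sod3 lay above 84.6% of the genes tested, and Gpx1 above 99.7%. The ranges of neighbours in this order overlapped except for Gpx1 and Prdx2, Prdx1 and Prdx6, and Prdx6 and Cat. In all 9 libraries Gpx3 nevertheless lay above Sod1 and Sod2 above Sod3, whereas Sod1 lay above Gpx4 in 7 libraries and Cat above Sod2 in 8. Summed over the 10 genes, the median level was 3188 FPKM in Sham, 3487 in OVX and 3380 in the treated group. The sum ranged from 2867 to 3866 in Sham, which covers all the OVX and treated values.

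**Figure D1:**
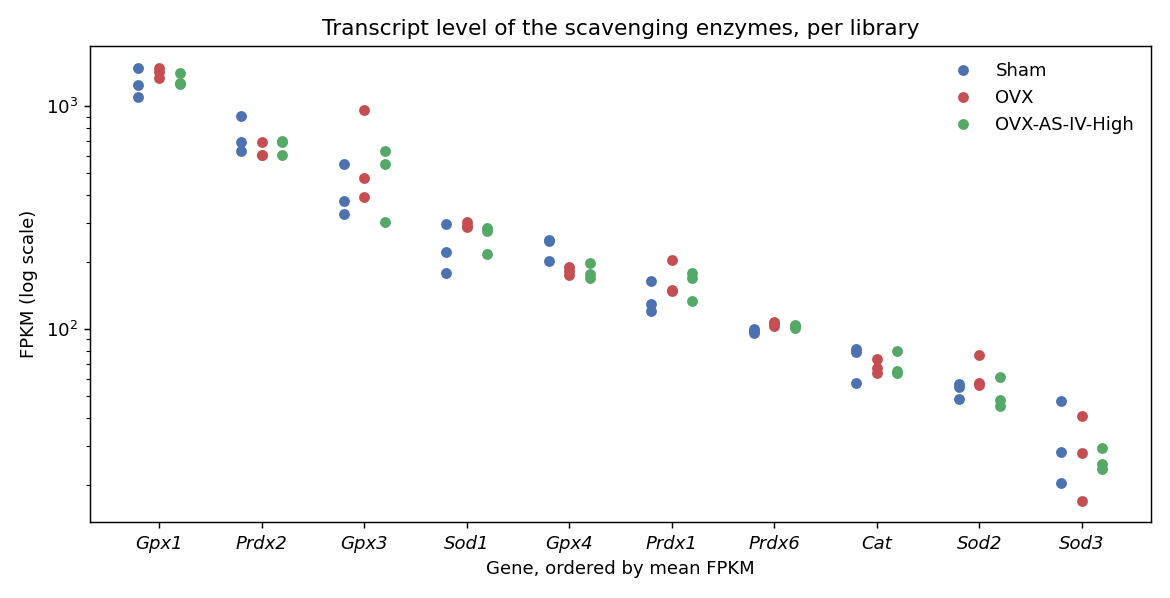
FPKM (y axis, log scale) of each enzyme (x axis, ordered by mean FPKM) in every library, with Sham in blue, OVX in red and OVX-AS-IV-High in green. Gpx1 lies at 1102 FPKM or more in all libraries and Sod3 at 47.8 or less, and the points of Gpx3 and Sod3 spread most within a group.

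The 10 genes differed widely in how much they varied between rats of a group. On the log2 scale the within-group SD of normalised expression was 0.547 for Gpx3 and 0.509 for Sod3, the 2 secreted enzymes, against 0.0411 for Prdx6. The others lay between 0.136 (Gpx4) and 0.249 (Sod1). Over the 9 libraries the highest value was 3.01 times the lowest for Gpx3, 2.77 times for Sod3 and 1.11 times for Prdx6.

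Comparisons between groups used CPM, counts scaled to the library total after TMM normalization, and edgeR's quasi-likelihood test fitted on all genes, with library totals from 34874880 to 37298250 counts. A gene is said to be called where its unadjusted p was under 0.05. The log2FC of an enzyme is given with its 95% interval, and adjusted p-values are those of edgeR, Benjamini–Hochberg adjusted over all 16874 genes.

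OVX vs. Sham asks what the loss of the ovaries changed. Of the 10 enzymes, 1 had an unadjusted p under 0.05, Gpx4, which was lower in OVX. Over all genes tested, 16.4% had such a p, 8.16% with a higher and 8.28% with a lower value in OVX, so that 1 of 10 is no more than the background. With an absolute log2FC over 1 also required, 0 enzymes and 3.11% of all genes were called. After Benjamini–Hochberg adjustment in edgeR, 0 genes of all those tested had an adjusted p under 0.05, and the smallest was 0.118. DESeq2 gave 834 genes such an adjusted p. The enzymes had 6 log2FC above 0 and 4 below, with a median of 0.10 against -0.01 for all genes, and their median absolute log2FC of 0.23 was close to the 0.22 of all genes.

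Treated vs. OVX asks what AS-IV changed in ovariectomized rats. None of the 10 enzymes (0) had an unadjusted p under 0.05 in edgeR or DESeq2, against 6.45% of all genes in edgeR, 4.42% with higher and 2.03% with lower values in the treated group, and 0 enzymes passed the rule with an absolute log2FC over 1, against 0.83% of all genes. The log2FC of the enzymes ran from -0.27 to 0.11, with 3 above 0 and 7 below, and their median absolute value was 0.09 against 0.15 for all genes. In all 10 the values of both groups overlapped, whereas 12.7% of all genes showed no overlap. Adjusted over all genes, 0 had a p under 0.05 in edgeR and 37 in DESeq2. Treated vs. Sham again gave 1 enzyme, Gpx4, against 17.6% of all genes, 9.17% with higher and 8.48% with lower values, and 0 enzymes with an absolute log2FC over 1 as well, against 3.15%. The log2FC of the other 9 enzymes ran from -0.29 (Sod3) to 0.24 (Gpx3), with adjusted p-values from 0.533 to 0.904 in edgeR. Adjusted over all genes, this comparison gave 0 genes with a p under 0.05 in edgeR and 1009 in DESeq2. The 3 comparisons share libraries pairwise, so the repeat of Gpx4 rests on the same Sham libraries.

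**Figure D2:**
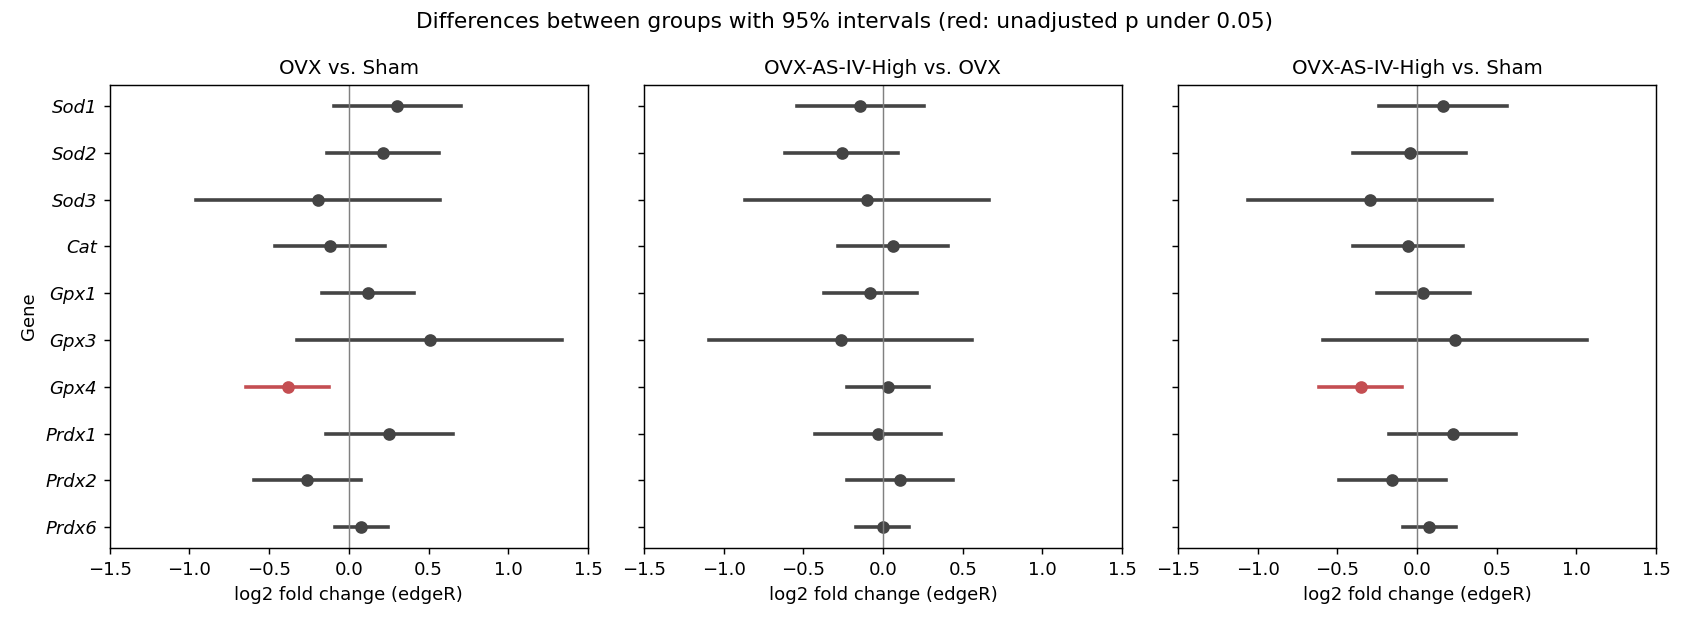
The log2FC (x axis, points) of each enzyme (y axis) with its 95% interval (lines) from edgeR in the 3 comparisons, with an unadjusted p under 0.05 in red. Only the intervals of Gpx4 in OVX vs. Sham (-0.64 to -0.13) and in OVX-AS-IV-High vs. Sham (-0.61 to -0.10) leave out 0, and those of Gpx3 and Sod3 are the widest.

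Gpx4 is the glutathione peroxidase that reduces lipid hydroperoxides within membranes and is known as the enzyme that holds back ferroptosis. It had 281, 291 and 232 CPM in Sham, with 206, 193 and 217 CPM in OVX and 231, 204 and 194 CPM in the treated group. All Sham libraries lay above all libraries of both ovariectomized groups, although the lowest, Sham replicate 3, stood only just above treated replicate 1. The means were 268 ± 31.6 CPM in Sham, 205 ± 11.9 in OVX and 210 ± 19.4 in the treated group (SD, n = 3 each). In CPM, groups did not overlap in 1 of the 10 enzymes in OVX vs. Sham, Gpx4, against 23.3% of all genes, and in 1 in treated vs. Sham, against 19.9%.
The log2FC was -0.38 (standard error 0.115) in OVX vs. Sham, a ratio of 0.766 with an interval from 0.641 to 0.917 and an unadjusted p of 0.00822. The adjusted p was 0.180 in edgeR and ranged from 0.0472, with DESeq2, to 0.464 over the alternatives. In treated vs. Sham the log2FC was -0.35 (standard error 0.115), with an unadjusted p of 0.0126 and an adjusted p of 0.174 in edgeR. A two-sided exact permutation test of 3 libraries against 3 gave p = 0.1 in both, the smallest it can give. Between the treated group and OVX the log2FC was 0.03, and the interval of the ratio ran from 0.854 to 1.22 (adjusted p = 0.992). That interval holds the ratios compatible with these data, and a limit of detection was not computed. Without Sham replicate 2, Gpx4 in treated vs. Sham had an unadjusted p of 0.0551 at a log2FC of -0.28.

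Several marker lists moved with or against Gpx4. The summed CPM of 8 adipocyte markers was 516 to 700.4 in Sham, 747 to 992 in OVX and 661 to 1004 in the treated group, and 6 of the 8 were higher in OVX than in Sham at an unadjusted p under 0.05. The 7 B lineage markers in the files summed to 750.3 to 1101 CPM in Sham and 1394 to 1500.3 in OVX, with 932 to 1435 in the treated group, and all 7 were higher in OVX than in Sham. Of all genes, 16.4% were called in OVX vs. Sham, 8.16% with a higher value in OVX. Over the 9 libraries, the log2 CPM of Gpx4 and the log2 of the summed adipocyte markers had Pearson's r = -0.911 (exact permutation p = 0.000904) and Spearman's rho = -0.883 (exact permutation p = 0.00308). The permutations here and below shuffled all 9 libraries without regard to group, so their p-values also take in differences between groups.
Without the 2 libraries farthest from the median of the list, r was -0.874, and for deviations from the group means it was -0.757. With the B lineage list, r was -0.910 (exact permutation p = 0.00143) and rho -0.783 (exact permutation p = 0.0172), r without the 2 farthest libraries was -0.695, and for deviations from the group means -0.874. Within OVX this did not hold for single libraries, since replicate 3, the OVX library richest in B lineage markers, had the highest Gpx4 of that group. Benjamini–Hochberg adjusted over the 100 relations of 10 enzymes and 10 lists, the p of r was 0.061 and that of rho 0.182 for both lists. The skeletal muscle markers moved with Gpx4 (r = 0.766, exact permutation p = 0.0142, adjusted 0.0834), with rho = 0.583 (exact permutation p = 0.108, adjusted 0.348). For deviations from the group means r was 0.780 with the skeletal muscle and 0.910 with the neutrophil markers. Over the 9 libraries r with the neutrophil markers was -0.0308. The part of any of these cell types in the difference of Gpx4 was not tested.

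**Figure D3:**
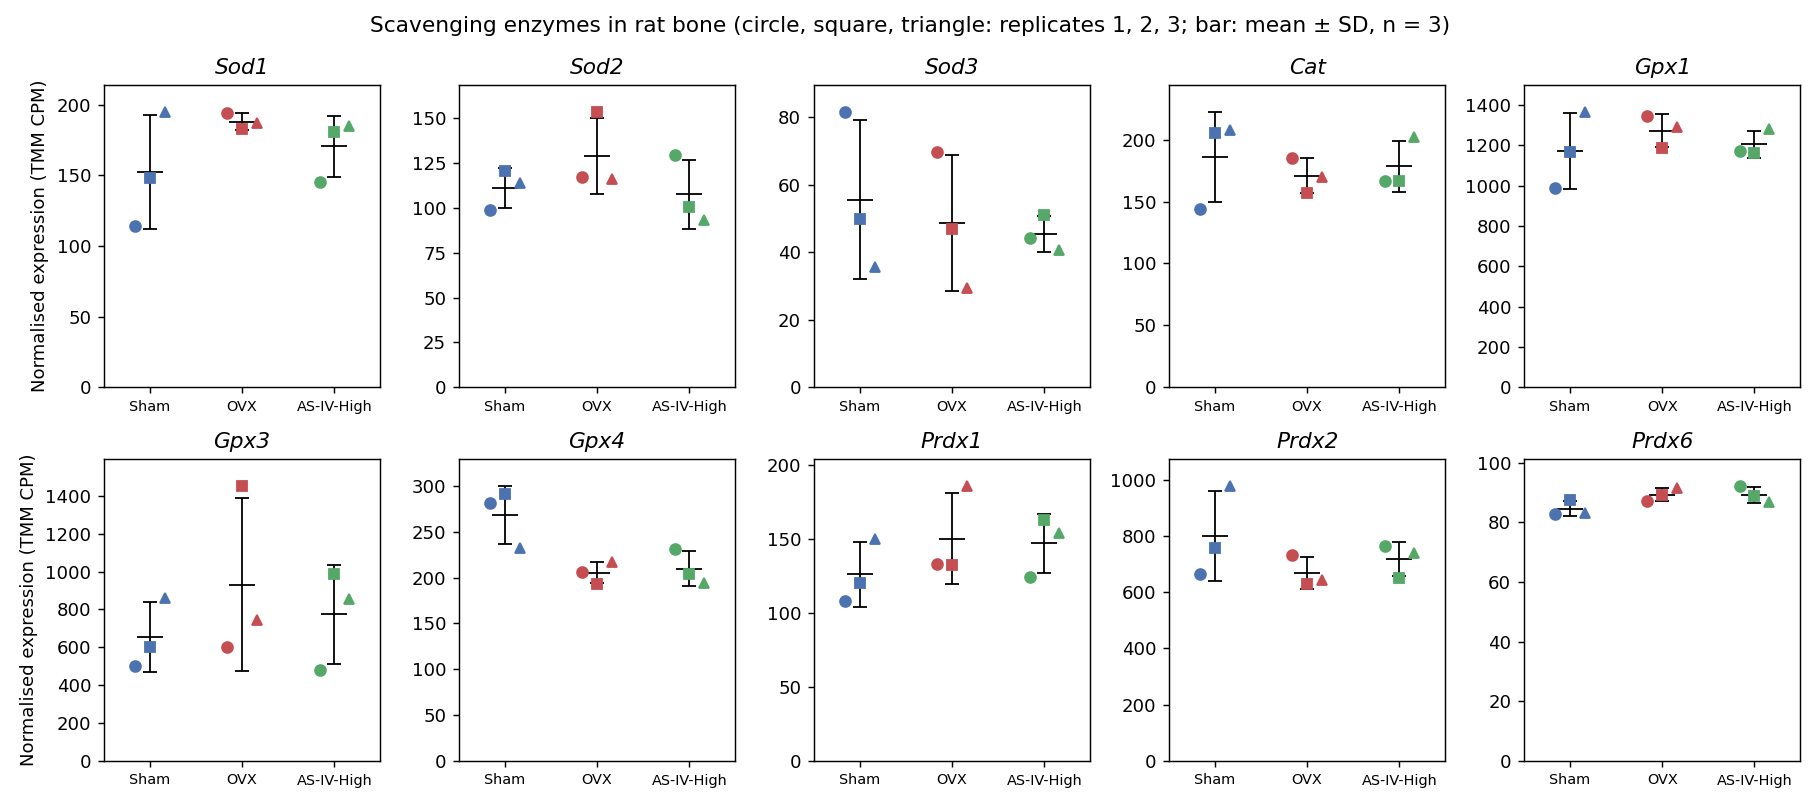
Normalised expression (y axes, TMM CPM from 0) of the 10 enzymes in each library of the 3 groups (x axes), with replicates 1, 2 and 3 as circles, squares and triangles and bars for the mean ± SD (n = 3). Gpx4 is the panel in which all Sham points lie above all others, and Gpx3 reaches 1451 CPM in OVX replicate 2.

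Gpx1 had 987, 1165 and 1363 CPM in Sham, with 1344, 1185 and 1292 in OVX and 1173, 1162 and 1282 in the treated group. Both extremes were Sham libraries, so the other groups lay within the Sham range. Its log2FC was 0.12 in OVX vs. Sham (-0.17 to 0.41, adjusted p = 0.644) and -0.08 in treated vs. OVX (-0.37 to 0.21, adjusted p = 0.959).
Gpx3 had 504, 601 and 862 CPM in Sham, with 600.3, 1451 and 743 in OVX and 482, 985 and 857 in the treated group. OVX replicate 2 stood far above the rest, and the groups overlapped widely. The log2FC of 0.51 in OVX vs. Sham was the largest of the 10 enzymes, yet its interval ran from -0.32 to 1.33 (adjusted p = 0.493). Left out in turn, the libraries moved it between 0.04 and 0.75. Treated vs. OVX gave -0.27 (-1.09 to 0.56, adjusted p = 0.952).
The libraries with much Gpx3 were those rich in the 8 osteoblast and osteocyte markers, whose summed CPM ran from 3361 to 8967 in Sham, from 7115 to 11719 in OVX and from 3791 to 10027 in the treated group. Pearson's r was 0.850 (exact permutation p = 0.00305, adjusted 0.061), rho was 0.817 (exact permutation p = 0.0108, adjusted 0.182), and r was 0.724 without the 2 farthest libraries. Of these 8 markers, Col1a1 alone had means of 4049 CPM in Sham, 7562 in OVX and 5139 in the treated group. Gpx3 also moved with the osteoclast (r = 0.772, rho = 0.700), adipocyte (r = 0.770, rho = 0.733) and macrophage markers (r = 0.671, rho = 0.750). For deviations from the group means, r was 0.847 with the osteoblast and osteocyte and 0.885 with the adipocyte markers. The part of any of these cells in the spread of Gpx3 was not tested.

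Sod1 had 114, 148 and 195 CPM in Sham, with 194, 183 and 187 in OVX and 145, 181 and 185 in the treated group. The OVX libraries lay close together, and Sham replicate 3 was as high as they were. The mean was 152 ± 40.3 CPM in Sham, 188 ± 5.92 in OVX and 171 ± 21.8 in the treated group (SD, n = 3 each). The log2FC in OVX vs. Sham was 0.30 (-0.10 to 0.71, adjusted p = 0.399), and without Sham replicate 3 it was 0.52 with an unadjusted p of 0.00647. Treated vs. OVX gave -0.14 (-0.54 to 0.26, adjusted p = 0.952).
Sod2 had 99.1, 120.4 and 114 CPM in Sham, with 117, 153 and 116 in OVX and 129.6, 100.4 and 93.1 in the treated group. One library of each ovariectomized group, OVX replicate 2 and treated replicate 1, stood above the rest. The log2FC was 0.21 in OVX vs. Sham (-0.14 to 0.57, adjusted p = 0.498) and -0.26 in treated vs. OVX (-0.61 to 0.09, adjusted p = 0.882). Without treated replicate 1 the latter was -0.41 with an unadjusted p of 0.0216.
Sod3 had 81.5, 49.8 and 35.5 CPM in Sham, with 69.7, 47.0 and 29.4 in OVX and 44.3, 51.2 and 40.8 in the treated group. Sham and OVX covered nearly the same range. Its log2FC was -0.19 in OVX vs. Sham (-0.96 to 0.57, adjusted p = 0.791) and -0.10 in treated vs. OVX (-0.87 to 0.66, adjusted p = 0.991). These intervals are wide enough to hold changes near 2-fold. Sod3 was low where the 8 osteoclast markers were high (r = -0.812, exact permutation p = 0.00617, adjusted 0.0706, and rho = -0.750, exact permutation p = 0.0255, adjusted 0.182). Without the 2 farthest libraries this r was -0.776. The part of these cells was not tested.

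Cat, the peroxisomal enzyme that splits hydrogen peroxide without an outside reductant, had 144, 205 and 208 CPM in Sham, with 185, 157 and 170.2 in OVX and 166, 167 and 202 in the treated group. Sham held both the lowest and the highest library. The log2FC was -0.12 in OVX vs. Sham (-0.47 to 0.22, adjusted p = 0.701) and 0.06 in treated vs. OVX (-0.28 to 0.41, adjusted p = 0.979). Without Sham replicate 1, Cat had an unadjusted p of 0.0413 in OVX vs. Sham, at a log2FC of -0.28.

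Prdx2 had 664, 757 and 977 CPM in Sham, with 732, 627 and 642 in OVX and 763, 650.03 and 741 in the treated group. Sham replicate 3 was the highest, and Sham replicate 1 lay within the OVX values. The log2FC was -0.26 in OVX vs. Sham (-0.60 to 0.07, adjusted p = 0.393), and -0.38 with an unadjusted p of 0.0223 without Sham replicate 1. In treated vs. OVX it was 0.11 (-0.23 to 0.44, adjusted p = 0.953).
Prdx2 was high where the 10 erythroid markers were high. Their summed CPM was 42767, 46741 and 62073 in Sham, with 42736, 37044 and 45856 in OVX and 49181, 43624 and 54124 in the treated group. By this sum, Sham replicate 3 was also the library richest in red cell transcripts. Of these 10 markers, Hba-a1 alone had means of 37990 CPM in Sham, 28680 in OVX and 32650 in the treated group. Pearson's r was 0.860 (exact permutation p = 0.00305, adjusted 0.061) and rho 0.783 (exact permutation p = 0.0172, adjusted 0.182), but r was 0.532 without the 2 farthest libraries. Cat also moved with these markers (r = 0.703, exact permutation p = 0.0319, adjusted 0.125, and rho = 0.650, exact permutation p = 0.0666, adjusted 0.289), with r = 0.545 without the 2 farthest libraries. With the mean log2 CPM of the list in place of its summed CPM, a summary added later, with the values known, r for Cat was 0.938 (exact permutation p = 5.51e-05, adjusted 0.00551). For Prdx2 this r was 0.839 (exact permutation p = 0.00417, adjusted 0.0801), and 0.816 without the 2 farthest libraries. The part of red cell precursors in either gene was not tested.

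Prdx1, the cytosolic peroxiredoxin of most cells, had 108, 120.4 and 150.3 CPM in Sham, with 133, 133 and 186 in OVX and 125, 163 and 154 in the treated group. The log2FC was 0.25 in OVX vs. Sham (-0.14 to 0.65, adjusted p = 0.473) and -0.03 in treated vs. OVX (-0.43 to 0.36, adjusted p = 0.995). Prdx1l1, described as peroxiredoxin 1-like 1, has a row of its own with 9.60 to 12.9% of the counts of Prdx1. The sequences of the 2 genes were not compared, and whether reads were split between the 2 rows is not known. The sum of both rows ran from 119 to 168 CPM in Sham, from 147.9 to 207 in OVX and from 138 to 181 in the treated group, so the groups overlapped.
Prdx6 had 82.9, 87.5 and 83.2 CPM in Sham, with 87.2, 89.0 and 91.6 in OVX and 92.1, 88.9 and 86.7 in the treated group. It varied least of the 10 genes, so its intervals are the narrowest. In OVX vs. Sham the ratio was 1.06, with an interval from 0.940 to 1.19 (adjusted p = 0.600), and in treated vs. OVX the interval of the ratio ran from 0.891 to 1.12 (adjusted p = 0.999). The CPM of Sham overlapped both other groups, but the FPKM did not: at most 99.96 in Sham, at least 103.1 in OVX and 101.4 in the treated group. The share of all genes apart in FPKM was not computed. Over the 18 fits of OVX vs. Sham, those on FPKM among them, the lowest unadjusted p of Prdx6 was 0.0567.

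Among the 45 pairs of enzymes, 6 had an unadjusted p under 0.05 for Pearson's r, and 1 kept an adjusted p under 0.05. This was Sod1 with Gpx1, the enzyme that makes hydrogen peroxide in the cytosol and one that removes it there, with r = 0.895 (exact permutation p = 0.000212, adjusted 0.00955) and rho = 0.933 (exact permutation p = 0.00075, adjusted 0.0337). Without the 2 libraries farthest from the median r was 0.687, and for deviations from the group means it was 0.890. In Sham both genes were lowest in replicate 1 and highest in replicate 3. Over all genes tested, 459 had r over 0.9 with Sod1 and 125 with Gpx1, so a relation this close was common for both. Cat and Prdx2 had r = 0.717 (exact permutation p = 0.0225, adjusted 0.202) and rho = 0.600 (exact permutation p = 0.0968, adjusted 0.544).
By contrast, Sod1 and Gpx4 had r = -0.776 (exact permutation p = 0.0191, adjusted 0.202), which became -0.369 without the 2 farthest libraries, with rho = -0.317 (exact permutation p = 0.410, adjusted 0.854).

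Over all 100 relations of enzymes and marker lists, 30 had an unadjusted p under 0.05 for r and 0 an adjusted one, the smallest being 0.061. By enzyme, 7 of the 30 were of Prdx1, 6 of Sod1, 5 of Gpx4, 4 of Gpx3, 3 of Gpx1 and 2 of Sod3, with 1 each of Cat, Prdx2 and Prdx6 and 0 of Sod2, so that several lists moved with the same gene. Sod1 moved with the osteoblast and osteocyte (r = 0.855, rho = 0.600), macrophage (r = 0.844, rho = 0.817), B lineage (r = 0.833, rho = 0.600), osteoclast (r = 0.798, rho = 0.600) and adipocyte markers (r = 0.764, rho = 0.417) and against the skeletal muscle markers (r = -0.782, rho = -0.750). Gpx4 also had r = 0.766 with the skeletal muscle, -0.728 with the osteoblast and osteocyte and -0.705 with the osteoclast markers. Further relations were those of Prdx1 with the osteoclast markers (r = 0.842, rho = 0.767) and the endothelial markers (r = -0.779, rho = -0.850), and of Prdx6 with the neutrophil markers (r = 0.704, rho = 0.517). Among the remaining lists, the summed CPM was 12401 to 17319 in Sham and 14888 to 19751 in OVX for neutrophil markers, of which 2 of 9 tested were higher in OVX. The 8 macrophage markers summed to 597 to 1105 and 781 to 956 CPM, and the 8 osteoclast markers to 982 to 2183 and 1400.1 to 2655, with 0 of 8 called in either.
The 8 endothelial markers summed to 431 to 565 CPM in Sham and 375 to 484 in OVX, with 2 lower in OVX. The 8 cartilage markers summed to 1231 to 3263 and 541 to 2147 CPM, with 1 lower, and 9 skeletal muscle markers to 1817 to 10041 and 1836 to 3586 CPM, with 0 called. In the treated group the sums were 16971 to 22413 CPM for neutrophil, 687 to 847 for macrophage, 1399 to 2584 for osteoclast, 372 to 396 for endothelial, 939.9 to 1895 for cartilage and 618 to 4942 for skeletal muscle markers. In OVX vs. Sham, 2 of 10 erythroid markers were lower and 1 of 8 osteoblast and osteocyte markers was higher. In treated vs. OVX, 3 of 7 B lineage and 1 of 8 endothelial markers were lower, and 0 markers of the other 8 lists were called. In treated vs. Sham, 5 of 8 adipocyte, 4 of 9 neutrophil and 2 of 7 B lineage markers were higher. Lower were 5 of 8 endothelial, 2 of 8 cartilage and 1 of 8 macrophage markers. Of the osteoblast and osteocyte and of the osteoclast markers, 1 of 8 each was higher. Among 10 erythroid markers 1 was higher and 1 lower, and 0 of 9 skeletal muscle markers were called. The shares of all genes called were 16.4% in OVX vs. Sham, 6.45% in treated vs. OVX and 17.6% in treated vs. Sham. All 23026 genes in the files had at least 1 count in some library, so no listed marker there could be at 0 throughout. The lowest summed CPM in any library was 516 for the adipocyte and 618 for the skeletal muscle list.

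**Figure D4:**
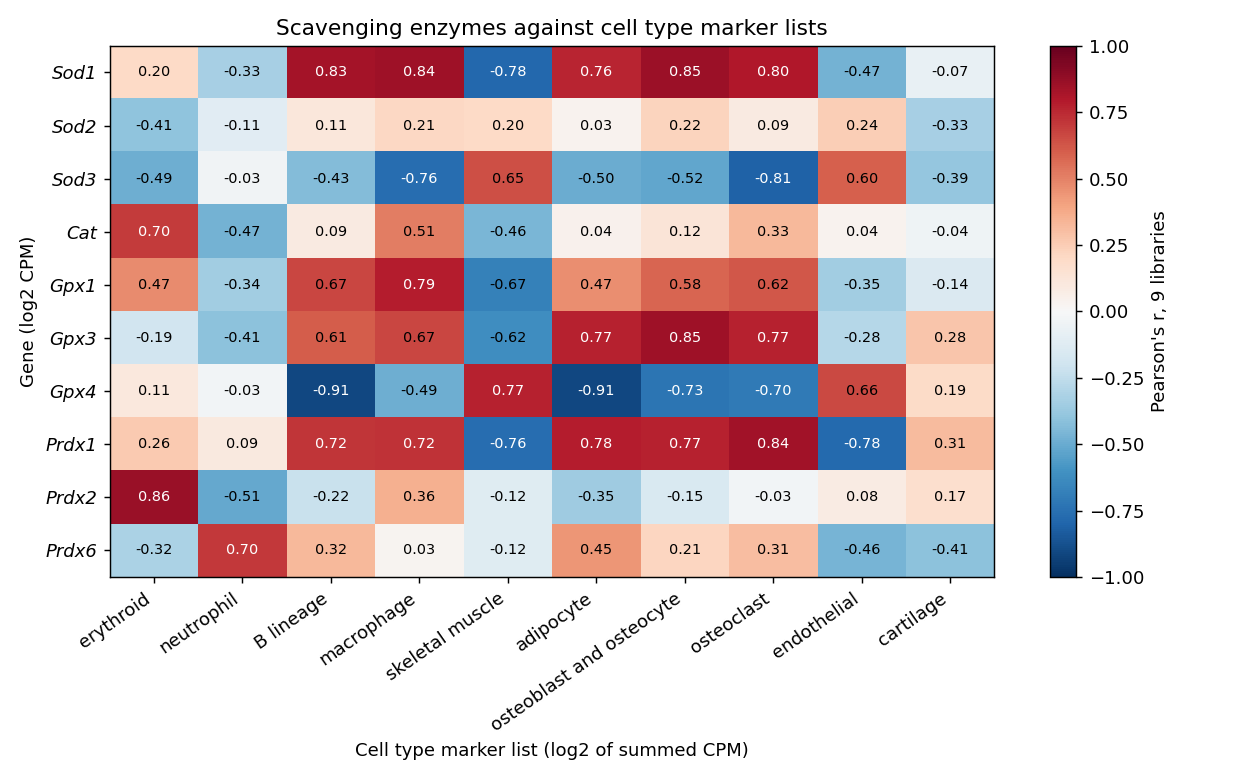
Pearson's r over the 9 libraries between the log2 CPM of each enzyme (y axis) and the log2 of the summed CPM of each cell type marker list (x axis), in red above 0 and blue below. Gpx4 has -0.91 with both the adipocyte and the B lineage list, and Prdx2 has 0.86 with the erythroid list.

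The enzymes depend on systems that recycle their reductants or supply their metals and selenium, and these were read from lists of companion genes. Of 14 genes for thioredoxin and glutathione recycling, 3 were higher and 2 lower in OVX than in Sham at an unadjusted p under 0.05 (5 of 14, against 16.4% of all genes), with 0 past an adjusted p of 0.05 in edgeR here and in the other companion lists. The count ran from 3 to 6 over 17 alternatives, with 3 without Sham replicate 2 or OVX replicate 3. Glrx, the cytosolic glutaredoxin, had 118, 122.8 and 112 CPM in Sham, with 149, 135 and 159 in OVX and 151, 148 and 150.4 in the treated group. Its log2FC in OVX vs. Sham was 0.33 (0.13 to 0.53, unadjusted p = 0.00416, adjusted p = 0.156 in edgeR). Txnrd1, the selenoenzyme that reduces thioredoxin in the cytosol, went from 50.0, 46.7 and 49.5 CPM in Sham to 58.7, 59.2 and 63.0 in OVX, a log2FC of 0.31 (0.12 to 0.49, unadjusted p = 0.00452).
For both genes all OVX and all treated libraries lay above all Sham libraries. Glrx5, the mitochondrial glutaredoxin of iron–sulfur cluster assembly, known for its need in red cell precursors, had 443 ± 60.6 CPM in Sham and 332 ± 38.0 in OVX (SD, n = 3 each), a log2FC of -0.42 with unadjusted p = 0.0195. Without Sham replicate 2 or 3, or OVX replicate 2 or 3, that p lay between 0.0528 and 0.0759.

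Gclc, the catalytic subunit of the rate-limiting enzyme of glutathione synthesis, had 89.2, 149 and 194 CPM in Sham, with 90.2, 80.6 and 80.3 in OVX and 131, 119.8 and 152 in the treated group. All treated libraries lay above all OVX libraries, while Sham replicate 1 stood with the OVX values. The log2FC was -0.78 in OVX vs. Sham (-1.31 to -0.25, unadjusted p = 0.00838) and 0.68 in treated vs. OVX (0.15 to 1.21, unadjusted p = 0.0169, adjusted p = 0.664 in edgeR). Both comparisons use the same OVX libraries. Gclc was the only 1 of 14 recycling genes called in treated vs. OVX (against 6.45% of all genes), and without treated replicate 3 its p there was 0.0577. The count ran from 0 to 2 over the alternatives, with Srxn1 or Glrx2 as the gene added. In treated vs. Sham, 4 of 14 were called (against 17.6% of all genes): Glrx, Txnrd1 and glutathione reductase (Gsr, log2FC 0.35) were higher and Glrx5 (-0.36) was lower. Here Gsr had a p of 0.0534 without Sham replicate 3 and 0.0587 without treated replicate 1. For Glrx5 the p reached 0.122, and it was over 0.05 without Sham replicate 2 or 3, OVX replicate 3 or treated replicate 2 or 3.

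Of the other peroxiredoxins and glutathione peroxidases, 5 of 8 listed were tested, and 1 was called in OVX vs. Sham (against 16.4% of all genes). This was Prdx5, the peroxiredoxin of mitochondria, peroxisomes and cytosol, which had 174, 179.7 and 150.04 CPM in Sham, with 221, 215 and 221 in OVX and 229.9, 215 and 186 in the treated group. Every library of the ovariectomized groups lay above every Sham library. The log2FC was 0.38 (0.14 to 0.63, unadjusted p = 0.00566, adjusted p = 0.166 in edgeR) in OVX vs. Sham and 0.32 (unadjusted p = 0.0141) in treated vs. Sham, where p was 0.0521 without treated replicate 1. The replicate block, or leaving out Sham replicate 1 or 3, made the count 2 in either comparison, with Prdx3 or Prdx4 added. In treated vs. OVX, 0 of the 5 were called (against 6.45% of all genes). Gpx2, the glutathione peroxidase of the gut lining, had 0 to 2 counts per library.

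Of 10 genes for metal and selenium supply, 3 were called in OVX vs. Sham, against 16.4% of all genes. All 3 were higher in OVX, against 8.16% of all genes. The count turned on single libraries: it was 0 without Sham replicate 1, 1 without Sham replicate 2, OVX replicate 2 or OVX replicate 3, and 5 without Sham replicate 3. Ccs, the chaperone that loads copper into Sod1, had 27.4, 30.6 and 30.5 CPM in Sham, with 34.6, 34.6 and 35.8 in OVX and 29.7, 27.9 and 28.1 in the treated group. The OVX libraries stood above all others. The log2FC was 0.25 in OVX vs. Sham (0.06 to 0.43, unadjusted p = 0.0162) and -0.29 in treated vs. OVX (-0.48 to -0.10, unadjusted p = 0.00647, adjusted p = 0.652 in edgeR), again with shared OVX libraries. Atox1, the copper chaperone of the secretory route, had a log2FC of 0.29 in OVX vs. Sham (unadjusted p = 0.0258), and Eefsec, the elongation factor that delivers selenocysteine, 0.35 (unadjusted p = 0.0363). Without Sham replicate 1 the unadjusted p was 0.0602 for Ccs, 0.0685 for Atox1 and 0.124 for Eefsec. In treated vs. OVX, 2 of the 10 were called, Ccs and Selenop, against 6.45% of all genes, with 1 without treated replicate 2 and 4 with limma.
Selenop, the secreted carrier of selenium, had 426, 458 and 567 CPM in Sham, with 442, 524 and 434 in OVX and 641, 728 and 552 in the treated group. Its log2FC in treated vs. OVX was 0.46 (0.12 to 0.79, unadjusted p = 0.0125, adjusted p = 0.652 in edgeR), and p was 0.0557 without treated replicate 2. In treated vs. Sham, Selenop had a log2FC of 0.40 (unadjusted p = 0.0221), with p from 0.0680 to 0.0911 without Sham replicate 1, Sham replicate 2 or treated replicate 2. Selenow, a small muscle-rich selenoprotein, had -0.45 with overlapping groups (unadjusted p = 0.0489), and its p was under 0.05 in only 5 of 18 fits and reached 0.230 without Sham replicate 1. The NADPH oxidase list held the phagocyte complex that makes superoxide beside genes of other oxidases, such as Nox1 and Nox4. Of its 10 genes 8 were tested, and 0 were called in OVX vs. Sham or treated vs. OVX. In OVX vs. Sham the count was 1 in 8 of 17 alternatives, DESeq2 and the replicate block among them, and in treated vs. OVX it was 0 in all 17. Cybb, the catalytic subunit of the phagocyte complex, was the 1 of 8 called in treated vs. Sham (against 17.6% of all genes), higher by a log2FC of 0.41 (unadjusted p = 0.0113).

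**Figure D5:**
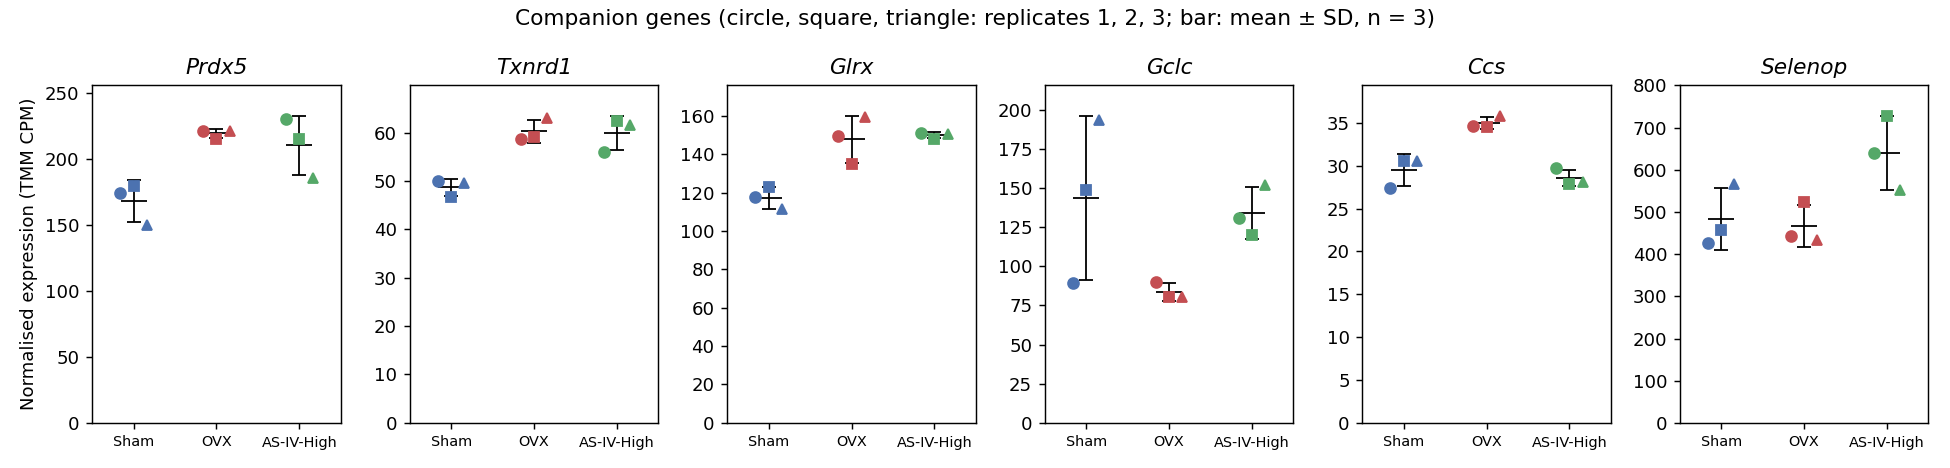
Normalised expression (y axes, TMM CPM from 0) of 6 companion genes in each library of the 3 groups (x axes), with replicates 1, 2 and 3 as circles, squares and triangles and bars for the mean ± SD (n = 3). Prdx5, Txnrd1 and Glrx lie higher in both ovariectomized groups than in Sham, whereas Gclc and Ccs in OVX-AS-IV-High lie apart from OVX.

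The genes whose log2 CPM over the 9 libraries was most like that of an enzyme are given as a description. For Sod1 they were Lsm1 (r = 0.996), Hnrnpf (0.987) and Alyref (0.984), and 459 genes had r over 0.9. For Gpx1 they were Dbf4 (0.973), Cdk1 (0.969) and Alg3 (0.968). Sod2 had only 2 genes over 0.9, H1f2 (0.934) and Tubg2 (0.926), followed by LOC120102310 (0.894). For Sod3 they were the homeobox genes Hoxa10 (0.974) and Hoxc6 (0.953) and Irs3 (0.950).
Cat was most like Abcb4 (0.986), Akr7a3 (0.983) and Ermap (0.982), an erythroblast membrane protein. Gpx3 was most like Magi2 (0.971), Pros1 (0.971) and the collagen gene Col16a1 (0.970), and Gpx4 like Acap3 (0.980), Inka2 (0.978) and Ccnl2 (0.971), with 201 genes over 0.9. Prdx1 was most like LOC102549158 (0.960), Ly96 (0.955) and Prdx1l1 (0.955). Prdx2 was most like Plekho1 (0.965), Pdzd4 (0.949) and Rnf187 (0.939), and Prdx6 like Oas3 (0.977), Etfa (0.965) and Adcy7 (0.943).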

How the data were processed

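Bone of 9 rats in 3 groups was measured by mRNA sequencing, with groups taken from the labels. The authors aligned reads with Tophat and Bowtie2, quantified genes with eXpress and deposited, for 23026 genes, raw counts in whole numbers and FPKM. How the estimates of eXpress became whole numbers is not given in the sources used here. The build in the submitters' processing notes is mRatBN7.2. The libraries are described as strand-specific.

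Counts were tested with edgeR 4.0.16 (R 4.3.3) quasi-likelihood, with TMM normalization, the default filter (minimum count of 10) and all 9 libraries in 1 fit. P-values were Benjamini–Hochberg adjusted over the 16874 genes tested. The common biological coefficient of variation was 0.256. Intervals are 95% intervals of the fit. FPKM served for levels between genes, as the mean and range over libraries, and for limma 3.58.1 on the log2(FPKM + pseudocount) scale. Correlations were tested over all 362880 orders of 9 libraries, without regard to group, with scipy 1.17.1 in Python 3.11.15.

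The members, companion lists and marker lists were chosen with earlier results of these data known. Named are all members, up to 4 companions per list and comparison by p among those with an unadjusted p under 0.05, and the 3 genes with the highest r to each member.

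Deviations from the group means were correlated between same-numbered libraries. The correlations were 0.31, 0.158 and 0.13 for OVX-AS-IV-High and OVX, and 0.2, -0.161 and 0.253 for OVX and Sham. For OVX-AS-IV-High and Sham they were 0.314, -0.158 and 0.435. The labels give replicate numbers alone, and whether these stand for a pairing or batch is not known. In all 3 groups, summed skeletal muscle markers fell from replicate 1 to 3, while osteoclast and macrophage sums rose. Muscle sums were 10041, 6182 and 1817 CPM for Sham replicates 1 to 3. They were 3586, 2229 and 1836 CPM for OVX, then 4942, 2383 and 618 CPM for the treated group. No other list kept the same order in every group. Correlations of enzymes with the lists took no account of replicate number, and the cause of the order was not tested. The alternatives were DESeq2 1.42.0, RLE size factors, other filters, FPKM, only the groups compared, the replicate block and each library left out.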

Additional observations from a re-analysis of the deposited data

How the results depend on the processing

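Here too, treated stands for OVX-AS-IV-High. Gpx4 kept an unadjusted p under 0.05 and its direction in 18 of 18 fits of OVX vs. Sham (log2FC -0.48 to -0.31) and in 17 of 18 of treated vs. Sham (-0.45 to -0.28), the exception being the fit without Sham replicate 2. With each library left out in turn, the number of enzymes with an unadjusted p under 0.05 ranged from 1 to 3 in OVX vs. Sham, from 0 to 1 in treated vs. OVX and from 0 to 2 in treated vs. Sham. The enzymes added were Cat and Prdx2 without Sham replicate 1, Sod1 without Sham replicate 3 and Sod2 without treated replicate 1. Relations of enzymes and marker lists with an adjusted p under 0.05 numbered 0 with summed CPM and with log2(FPKM + 1), and 4 with the mean log2 CPM of a list, an alternative added with the values known: Gpx4 with adipocyte and B lineage, Cat with erythroid and Sod1 with macrophage markers.

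With the replicate block, the enzymes called were the same, with a log2FC of Gpx4 of -0.38 in OVX vs. Sham, while all genes with an unadjusted p under 0.05 numbered 3677, 1310 and 3705 in OVX vs. Sham, treated vs. OVX and treated vs. Sham, and those with an adjusted p under 0.05 numbered 21, 0 and 58 in edgeR. DESeq2 gave 834, 37 and 1009 of the latter.

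Among the enzymes, directions turned only where no test was passed in that comparison, and the cause was not tested. In treated vs. OVX, Sod3 became 0.00401 with the replicate block, Gpx4 -0.00788 and -0.00793 with limma at pseudocounts of 1 and 0.1, and Prdx6 0.0123 with RLE, 0.0140 without a filter, 0.00628 with 10 CPM in 3 libraries, 0.00481 with only 2 groups and 0.0122 with DESeq2. With libraries left out, ranges crossed 0 in OVX vs. Sham for Sod3 (-0.54 to 0.18). In treated vs. OVX they did so for Sod3 (-0.36 to 0.25), Cat (-0.0376 to 0.124), Gpx3 (-0.50 to 0.20), Gpx4 (-0.0472 to 0.0827), Prdx1 (-0.12 to 0.15) and Prdx6 (-0.0248 to 0.0196). In treated vs. Sham they did so for Sod2 (-0.20 to 0.0494), Sod3 (-0.53 to 0.10), Cat (-0.21 to 0.0321), Gpx1 (-0.0628 to 0.16) and Prdx2 (-0.27 to 0.0161). All 10 enzymes had at least 1083 counts in each library, whereas the 0 to 2 counts of Gpx2 allow no comparison.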
